A study of Gallus gallus with 3 samples.

Results

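The PAX genes of the chicken spinal neural tube were described at 2 Hamburger-Hamilton stages, HH19 and HH14. Members were all rows of the expression table whose gene symbol was PAX followed by a number and nothing else. The rule gave 7 genes of 15916, namely PAX1, PAX2, PAX3, PAX5, PAX6, PAX7 and PAX9. PAX4 and PAX8 were not analysed here. The HH19 group was 1 library and the HH14 group 2 libraries of polyadenylated RNA, all from wild-type White Leghorn embryos. Each library pooled spinal neural tube of about 25 embryos, cut at brachial level and reaching back into the thorax, with neighbouring tissues taken off by hand and with trypsin. The shared egg protocol also speaks of microsurgery, without saying on which embryos. The protocol attached to the HH19 library is the text for HH14, so the HH19 dissection itself is not described. Expression was given as TPM, a unit that expresses each transcript as a share of all transcripts after correcting for its length, in 1 column per stage.

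PAX proteins are transcription factors that bind DNA through a paired domain. PAX3, PAX6 and PAX7 also carry a complete homeodomain, PAX2 and PAX5 a partial one, and PAX1 and PAX9 none. In the developing spinal cord PAX3 and PAX7 mark dorsal progenitors, PAX6 marks a broad band of progenitors with its highest protein level at intermediate positions. Sonic hedgehog from the notochord and floor plate represses PAX3 and PAX7 in the ventral tube. PAX2 is switched on later, in postmitotic interneurons that include most inhibitory ones of the dorsal horn. PAX1 and PAX9 are known from the sclerotome and the pharyngeal pouches, and PAX5 from the midbrain-hindbrain boundary and B lymphocytes.

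The deposited HH14 column holds 1 value for both libraries, so it carries no replicate error, and HH19 had 1 library. Setting HH19 against HH14 addresses which identity regulators of the neural tube differed between the stages. These columns allow no test, so differences were ranked by their size. The words higher and lower are used for genes with a log2(TPM + 1) difference of 1 or more between HH19 and HH14, provided that the mean over the 3 libraries reached 1 TPM (the HH14 value stood for 2). Of 11097 genes tested, 436 (3.93%) were higher and 153 (1.38%) lower at HH19, together 5.31%. Higher genes were 74.0% of those called, or 57.7% after quantile normalization, which gave 300 higher and 220 lower. Over all tested genes the log2 difference had a median of 0.05. The columns summed to 946462 TPM at HH19 and 957154 TPM at HH14. TPM keeps no read total, so the total reads of each library are unknown. The relative depth of the HH14 libraries is given below. In bulk tissue, fewer cells of a type and less RNA per cell cannot be told apart.

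PAX2 was the PAX gene called higher, 1 of the 5 that could be tested (3.93% of all tested genes were), and none was lower (1.38% of all). The 3 progenitor genes PAX6, PAX3 and PAX7 stayed within 2-fold, at 1.33 to 1.46 times the HH14 TPM. PAX1 lay close to its HH14 value. PAX5 and PAX9 were below the filter on mean TPM. The members fell into 2 ranges of level, with PAX6, PAX3 and PAX7 above 24 TPM at both stages and the other 4 below 5 TPM.

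**Figure D1:**
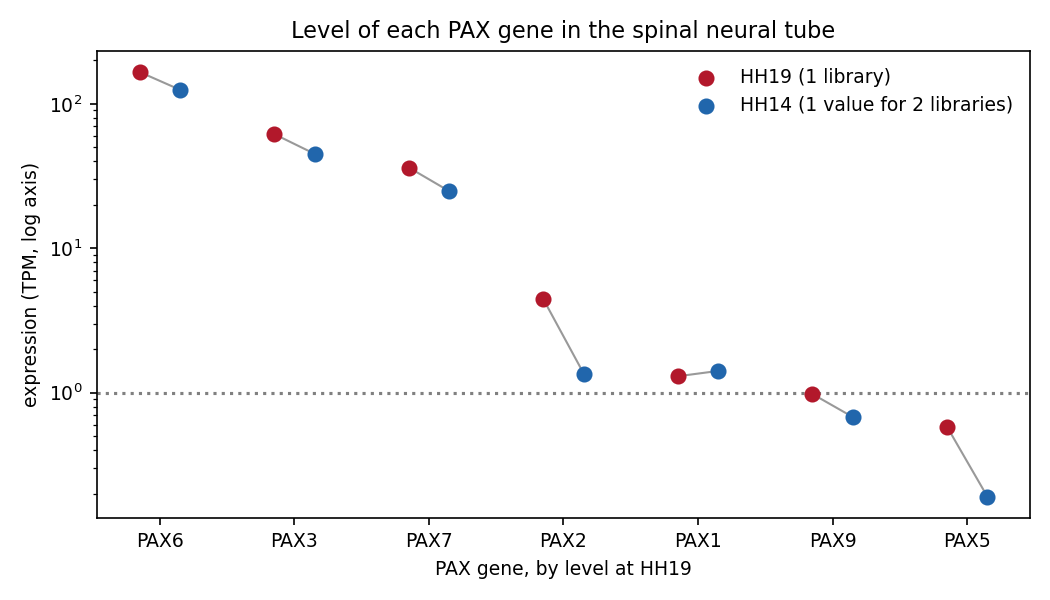
Expression of the 7 PAX genes in TPM on a log axis, HH19 left (red) and HH14 right (blue), ordered by the HH19 level; the dotted line marks 1 TPM. PAX2 has the steepest line among genes above 1 TPM, with 4.45 TPM at HH19 and 1.36 TPM at HH14.

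PAX6, needed for progenitor identity in the intermediate and ventral neural tube, was the most abundant member at both stages. It had 166 TPM at HH19 and 125 TPM at HH14, a log2(TPM + 1) difference of 0.41. By TPM it stood at rank 841 of all genes at HH19 and at rank 1172 at HH14, in the top 5.28% and the top 7.36%. PAX3, a dorsal progenitor and neural crest gene also active in the dermomyotome, had 61.7 TPM at HH19 and 45.1 TPM at HH14 (difference 0.45), with rank 2511 at HH19 and rank 3269 at HH14. PAX7, the closest relative of PAX3, had 36.2 TPM at HH19 and 24.9 TPM at HH14 (difference 0.52), with rank 4030 at HH19 and rank 4963 at HH14. All 3 were thus above their HH14 level by amounts that many other genes matched. Of all tested genes, 21.3% had a larger log2 difference than PAX6, 19.1% than PAX3 and 15.1% than PAX7.

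The proportions among these 3 genes were much alike at the stages. The TPM ratio of PAX6 to PAX3 was 2.69 at HH19 and 2.78 at HH14. That of PAX3 to PAX7 was 1.70 at HH19 and 1.81 at HH14, and that of PAX6 to PAX7 4.58 at HH19 and 5.03 at HH14. Each ratio moved by less than 10% between the stages, while the summed TPM of the 3 genes was 264 at HH19 and 195 at HH14, or 1.35 times higher. They made up 97.3% of all PAX TPM at HH19 and 98.2% at HH14. No replicate error is available for these ratios.

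PAX2 had 4.45 TPM at HH19 and 1.36 TPM at HH14, a log2(TPM + 1) difference of 1.21 and a plain TPM ratio of 3.27. It passed the filter with its value at either stage alone. Of all tested genes 2.13% had a larger difference. By TPM it stood at rank 9153 of all genes at HH19 and at rank 10555 at HH14, and so was a gene of low level in the whole tissue at both stages. PAX6 exceeded PAX2 37.3 times in TPM at HH19 and 92.1 times at HH14.

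**Figure D2:**
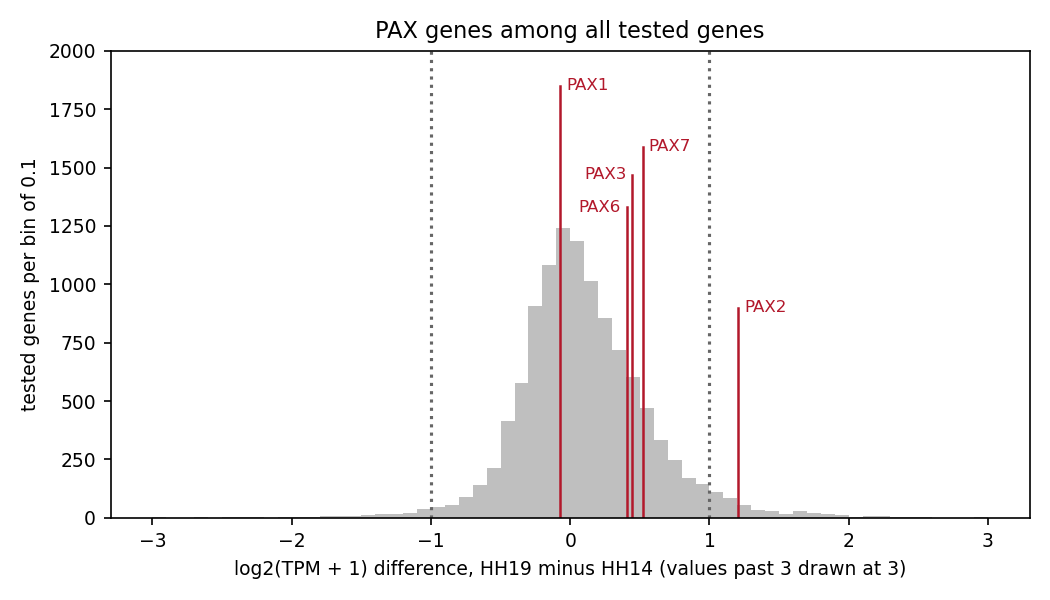
Distribution of the log2(TPM + 1) difference, HH19 minus HH14, over all 11097 tested genes in bins of 0.1 (grey), with the 5 tested PAX genes as red lines whose height has no meaning; dotted lines mark the 2-fold limits. PAX6, PAX3 and PAX7 lie together at 0.41 to 0.52 on the right shoulder, PAX2 at 1.21 beyond the limit, and PAX1 at -0.07 near the centre.

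For low genes the reads behind the values could be recovered, because the deposited numbers step by whole reads after 1 added read per gene and library. For 1426 genes that no library had read, the HH19 column was 1.066 times the HH14 column. Library A, the shallower HH14 library, and library B, with 1.28 times its depth, were told apart by the worth of 1 read. Which is replicate 1 in the labels is not known. Reads were recovered for 4871 genes, among them PAX1, PAX2, PAX5 and PAX9. The TPM per HH14 library assumes that the column is their plain mean. PAX3, PAX6 and PAX7 had too many reads for a single solution, so their spread between the HH14 libraries is unknown.

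PAX2 had 4.45 TPM from 86 reads at HH19, against 1.08 TPM from 19 reads in HH14 library A, and 1.64 TPM from 38 reads in library B. The HH19 value was above both HH14 libraries, and its exact 95% Poisson interval of 3.57 to 5.48 TPM lay above those of A (0.67 to 1.65 TPM) and B (1.17 to 2.23 TPM). Without the added read, HH19 was 4.30 times A (95% interval 2.59 to 7.48) and 2.75 times B (1.86 to 4.14). These intervals cover counting error only. Against B alone the log2(TPM + 1) difference was 1.05, still past the 2-fold limit, and against A alone 1.39. A limma test of HH19 against the 2 HH14 libraries over 1125 recovered genes (mean TPM 1 or more) gave PAX2 a log2 difference of 1.22 ± 0.38 (SE), an unadjusted p of 0.0216 and a Benjamini-Hochberg adjusted p of 0.483. limma called 0 of the 1125 genes higher (0%) and 0 lower (0%), with 109 (9.69%) at an unadjusted p below 0.05. With 1 HH19 library against 2, a p that misses the threshold does not show that PAX2 was level. The p-values rest on the spread between the 2 HH14 libraries, moderated by that of the other genes. The single HH19 library adds no measure of its own spread. Nothing says that the HH14 pools came from separate batches of eggs. The HH14 libraries differed 1.56-fold in PAX2 (B over A, 95% interval 0.88 to 2.87). Of the 829 recovered genes within 2-fold of its mean TPM, 47.9% were further apart, and 27.1% were at least 2-fold apart in plain TPM. A 2-fold difference was thus common between libraries of the same stage.

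PAX1, a sclerotome gene, differed more between the HH14 libraries than between the stages. It had 1.30 TPM from 50 reads at HH19, against 0.672 TPM from 24 reads in HH14 library A and 2.16 TPM from 102 reads in library B. The HH19 value lay between the HH14 libraries, so the direction depended on the library, with HH19 1.98 times A (95% interval 1.19 to 3.36) and 0.596 times B (0.416 to 0.844). B was 3.32 times A (95% interval 2.11 to 5.41), and 10.8% of 1101 recovered genes of like level were further apart. limma gave PAX1 a log2 difference of 0.0013 ± 0.51 (SE) and an adjusted p of 0.998. The deposited columns, with 1.30 TPM at HH19 and 1.42 TPM at HH14, hide this spread.

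PAX9, the paralog of PAX1 in the sclerotome, had 0.979 TPM from 32 reads at HH19, against 0.626 TPM from 19 reads in library A and 0.732 TPM from 29 reads in library B. The HH19 value was above both, though its 95% interval of 0.679 to 1.37 TPM overlapped those of A (0.389 to 0.959 TPM) and B (0.499 to 1.04 TPM). PAX9 thus did not show the spread of PAX1, and the TPM ratio of PAX1 to PAX9 was 1.33 at HH19, against 1.07 in library A and 2.95 in library B. PAX5 had 0.582 TPM from 14 reads at HH19, against 0.286 TPM from 6 reads in A and 0.0957 TPM from 2 reads in B. HH19 was 2.21 times A (95% interval 0.80 to 7.03) and 8.51 times B (1.95 to 77.2). The plain TPM ratio of PAX5 between the columns was 3.05, near that of PAX2, but it rested on 14 reads at HH19 and 8 at HH14.

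**Figure D3:**
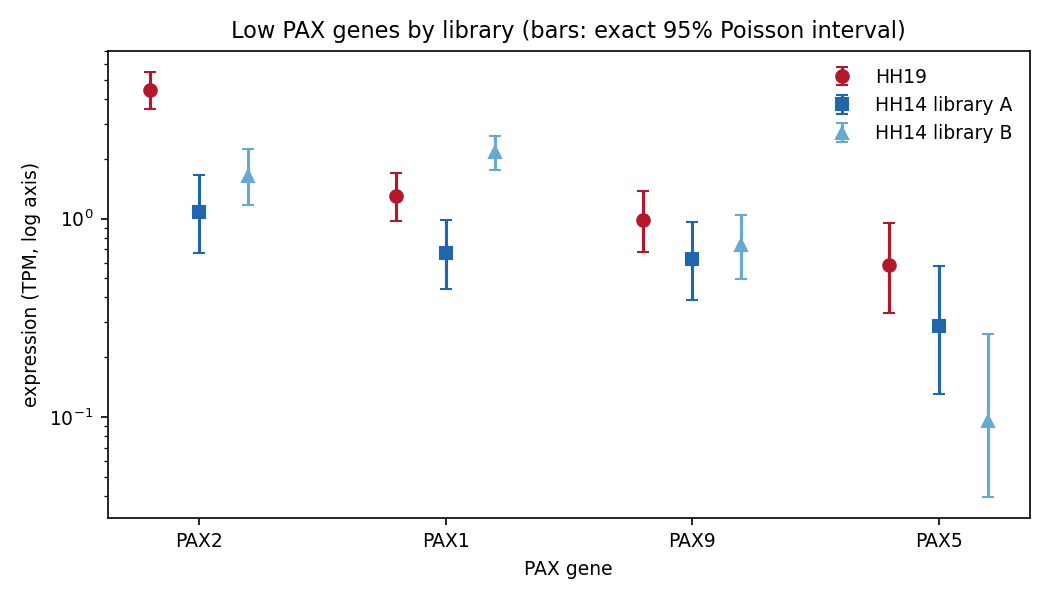
TPM of the 4 low PAX genes by library on a log axis, with HH19 left (red circle), HH14 library A in the middle (dark blue square) and HH14 library B right (light blue triangle); bars are exact 95% Poisson intervals of the recovered reads, including the added read. PAX2 at HH19 stands clear of both HH14 libraries, while PAX1 at HH19, with 1.30 TPM, lies between 0.672 TPM in A and 2.16 TPM in B.

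The order of the members by TPM was PAX6, PAX3, PAX7, PAX2, PAX1, PAX9 and PAX5 at HH19. At HH14 PAX1 (1.42 TPM) and PAX2 (1.36 TPM) changed places, a difference well inside the spread of either gene between the HH14 libraries. In library A the intervals of PAX2, PAX1 and PAX9 overlapped. In library B PAX1 led, with an interval of 1.76 to 2.62 TPM that overlapped that of PAX2. At HH19 the intervals of PAX1 and PAX9 overlapped, as did those of PAX9 and PAX5.

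Genes of the same progenitor territories were set beside PAX3, PAX6 and PAX7. Counts for each list below stand beside 3.93% higher and 1.38% lower over all tested genes. Of 7 tested dorsal progenitor domain factors 2 were higher, PTF1A and ZIC1, and 0 lower (median log2 difference 0.84, against 0.05 for all tested genes; 1 higher after median-ratio scaling or quantile normalization), and of 6 tested intermediate and ventral factors 3 were higher and 0 lower (median 0.69). MSX1, a dorsal midline and crest homeobox gene, had 181 TPM at HH19 and 98.5 TPM at HH14. OLIG3, a bHLH factor of the most dorsal progenitors, had 65.1 TPM at HH19 and 48.4 TPM at HH14. The TPM ratio of PAX3 to OLIG3 was 0.949 at HH19 and 0.931 at HH14, while that of PAX3 to MSX1 was 0.340 at HH19 and 0.458 at HH14. DBX1 and DBX2, homeobox genes of the domains around the PAX7 boundary, were called higher, with 155 and 165 TPM at HH19, against 57.2 and 76.4 TPM at HH14. PAX6 therefore stood above both at HH14, and close to DBX2 at HH19. NKX6-2, a ventral homeobox gene, had 176 TPM at HH19 and 165 TPM at HH14.

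Of 8 tested neural progenitor markers all lay above their HH14 value, against 55.6% of all tested genes. None of the markers reached 2-fold (median 0.43, and 0.45 for the 5 tested PAX genes). The smallest difference, 0.01 for CDH2, was less than the 0.05 median of all genes. SOX2, the general neural progenitor factor and a partner of PAX6, had 185 TPM at HH19 and 178 TPM at HH14. The TPM ratio of PAX6 to SOX2 was 0.896 at HH19 and 0.704 at HH14, that of PAX3 to SOX2 0.333 at HH19 and 0.254 at HH14, and that of PAX7 to SOX2 0.196 at HH19 and 0.140 at HH14. Against NES, the intermediate filament gene nestin, with 667 TPM at HH19 and 366 TPM at HH14, PAX6 moved the other way, with a ratio of 0.249 at HH19 and 0.342 at HH14. Whether PAX6 gained or lost on progenitor markers thus depended on the marker. Of 14 tested signalling genes of the dorsoventral and caudal axes none was higher or lower (median -0.0002; 1 was lower after either rescaling and 2 at a pseudocount of 0.1). SHH, the floor plate signal, had 117 TPM at HH19 and 88.3 TPM at HH14, and its receptor gene PTCH1 had 74.9 TPM at HH19 and 110 TPM at HH14.

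PAX2 was compared with other genes of inhibitory and association interneurons. Of 12 matched members 8 could be tested, 5 of them higher and 0 lower (median 1.13), against 3.93% and 1.38% of all tested genes. After median-ratio scaling or quantile normalization 4 were higher, and at a pseudocount of 5 only 2 were (median 0.59). LHX1 and LHX5, LIM homeodomain genes known to share interneuron classes with PAX2, had 21.0 and 12.9 TPM at HH19, against 4.65 and 1.47 TPM at HH14. SLC32A1, the vesicular transporter of GABA and glycine, had 3.41 TPM at HH19, against 0.0586 TPM in HH14 library A, with 0.946 TPM in B. GAD1, which makes GABA, had 0.908 TPM at HH19 and 1.61 TPM at HH14, so not all members pointed the same way. PTF1A, the bHLH factor that precedes PAX2 in dorsal inhibitory lineages of the mouse, had 9.76 TPM at HH19, against 0.254 TPM in A and 0.595 TPM in B. The log2 differences of LHX5 (2.50), LHX1 (1.96) and PTF1A (2.92) were larger than that of PAX2 (1.21). The TPM ratio of PAX2 to LHX1 was 0.212 at HH19 and 0.292 at HH14, that of PAX2 to LHX5 0.344 at HH19 and 0.926 at HH14, and that of PAX2 to PTF1A 0.455 at HH19 and 3.20 at HH14. The HH14 values of PTF1A rest on a few reads, so its HH14 ratio is uncertain.

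Neuron markers were mostly higher alongside PAX2. Of 10 tested, 7 were higher at HH19 and 0 lower (median 1.37), against 3.93% and 1.38% of all tested genes. TUBB3, the neuronal tubulin, had 540 TPM at HH19 and 213 TPM at HH14. The TPM ratio of PAX2 to TUBB3 was 0.00824 at HH19 and 0.00638 at HH14. Whether PAX2 gained or lost on neuron markers depended on the marker. PAX2 had 3.27 times its HH14 TPM at HH19, against 2.53 times for TUBB3 and 3.00 times for NEFL. The ratio was larger for STMN2 (7.08 times) and NEFM (3.41 times). The recovered members of the inhibitory list, 6 genes, summed to 8.96 TPM at HH19, against 1.13 TPM in A and 2.76 TPM in B. The sums had the order seen for PAX2, with HH19 above B and B above A, but were carried by SLC32A1, GATA2 and EN1. By gene, 4 of the 6 were higher in B than in A. Of all recovered genes with an HH14 read 47.9% were, and 54.1% of those with a mean TPM of at least 1. GATA3 ran the other way, with 0.0513 TPM at HH19, against 0.216 TPM in A and 0.127 TPM in B. Its HH19 value was that of a gene without a read, and its HH14 values rest on a few reads. The part that neuron number had in the PAX2 difference was not tested. Of 15 listed excitatory and commissural interneuron genes 11 were matched, and only LMX1B passed the filter, with 8.39 TPM at HH19 and 13.7 TPM at HH14. Among those below it TLX3, which specifies excitatory dorsal horn neurons, had 1.90 TPM at HH19, against 0.118 TPM in A and 0.184 TPM in B.

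**Figure D4:**
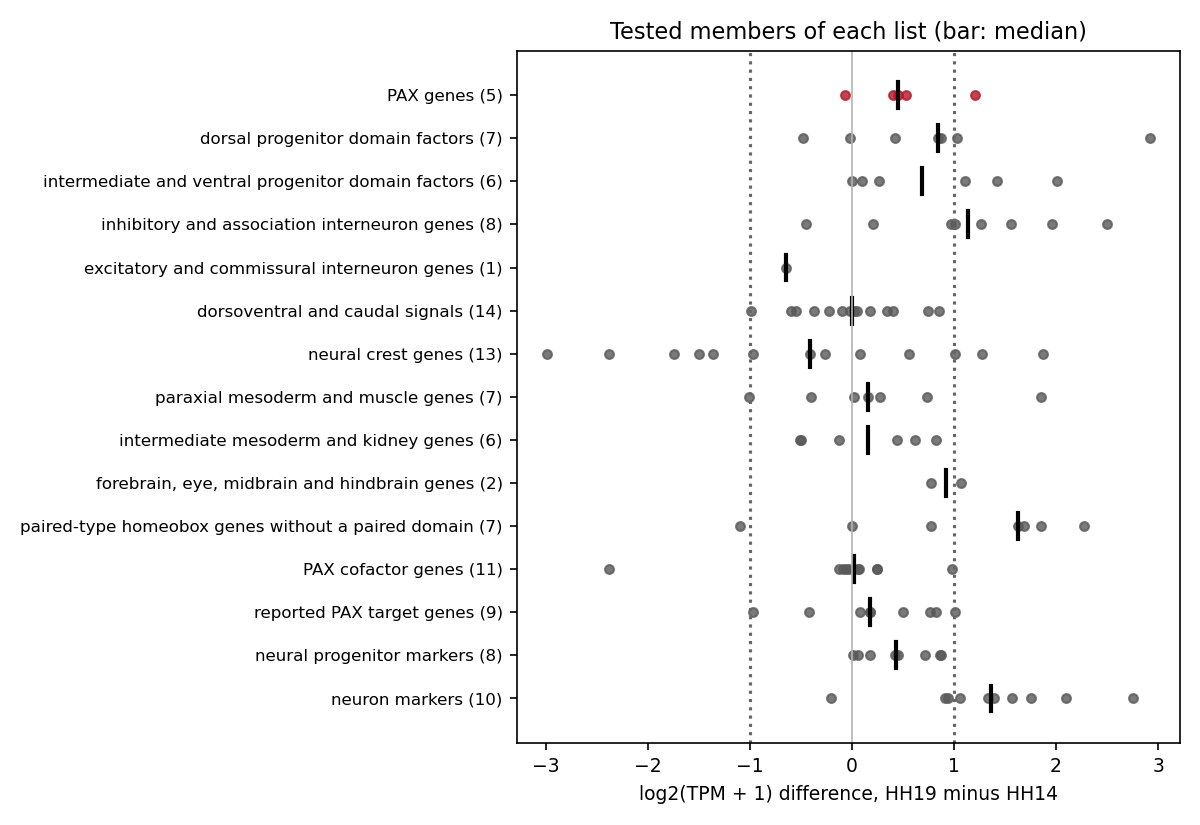
Log2(TPM + 1) difference, HH19 minus HH14, of every tested member of the PAX genes (red) and of the 14 comparison lists (grey), with the number tested in brackets, the median as a black bar and dotted lines at the 2-fold limits. The PAX genes have a median of 0.45, near that of the neural progenitor markers (0.43) and below those of the inhibitory interneuron (1.13) and neuron (1.37) lists.

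Homeobox genes of the paired type that lack a paired domain are the nearest relatives of the PAX genes by their homeodomain. Of 22 matched, 7 could be tested, 4 of them higher and 1 lower, against 3.93% and 1.38% of all tested genes. Their median was 1.63, against 0.45 for the PAX genes. The median was 0.66 at a pseudocount of 5, and 0.011 over all 22 with no filter, 15 of which had a mean below 1 TPM. VSX1, an interneuron gene, had 13.2 TPM at HH19 and 3.41 TPM at HH14. The list spans both directions.

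Genes whose products are known to work with PAX proteins ranged from -2.38 to 0.98 in log2 difference. Of 11 tested cofactor genes 0 were higher and 1 lower (median 0.02, or -0.011 after median-ratio scaling). Over all tested genes 3.93% were higher and 1.38% lower. PAXIP1, which links PAX2 to histone methylation complexes, had 17.6 TPM at HH19 and 19.3 TPM at HH14. PAXBP1, which binds PAX3 and PAX7, had 60.3 TPM at HH19 and 62.7 TPM at HH14. TLE3, a Groucho corepressor, had 66.3 TPM at HH19 and 33.1 TPM at HH14, with a log2 difference of 0.98 just inside the limit. SOX10, a crest factor that acts with PAX3 on melanocyte genes, was the one called lower, with 3.76 TPM at HH19 and 23.8 TPM at HH14. Of 18 matched genes reported elsewhere as PAX targets, 9 could be tested, 1 of them higher and 0 lower (median 0.18). After either rescaling 0 were higher and 1 lower. The gene called higher was MAB21L2, with 2.36 TPM at HH19, against 1.14 TPM in A and 0.194 TPM in B. FABP7, a radial glia gene downstream of PAX6 in the rodent brain, had 1616 TPM at HH19 and 1433 TPM at HH14. SFRP2, a secreted WNT modulator, had 139 TPM at HH19 and 188 TPM at HH14.

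PAX genes also mark the neural crest, and tissues beside the neural tube that were to be removed. Of 14 matched neural crest genes 13 were tested, 3 of them higher and 5 lower, against 3.93% and 1.38% of all tested genes. Their median was -0.41 and the list went both ways, with 5 members above and 8 below HH14. SNAI2, a crest factor, had 2.45 TPM at HH19 and 26.3 TPM at HH14. SOX9, also a progenitor gene of the neural tube, had 29.9 TPM at HH19 and 7.45 TPM at HH14. SOX8 and ETS1 were the other members called higher, with 7.97 and 12.9 TPM at HH19, against 2.70 and 5.91 TPM at HH14. Of 18 matched paraxial mesoderm and muscle genes 7 were tested, 1 of them higher (UNCX, also an interneuron gene) and 1 lower (EYA1). Their median was 0.16, or -0.0091 after quantile normalization, and their TPM summed to 108 at HH19 and 70.0 at HH14, of which DES, the muscle filament gene desmin, gave 82.1 TPM at HH19 and 49.0 TPM at HH14. MYOG stood at the value of a gene without a read in all 3 libraries, MYF5 had 0.0601 TPM at HH19 and 0.0728 TPM at HH14, and MYOD1 0.265 TPM at HH19 and 0.187 TPM at HH14. TCF15 had 2.50 TPM at HH19, against 1.45 TPM in A and 2.35 TPM in B. TBX18 had 0.114 TPM at HH19, against 0.0171 TPM in A and 0.0869 TPM in B. MEOX1 was nearly level, with 1.25 TPM at HH19, 1.18 TPM in A and 1.25 TPM in B. MET was lower in B than in A, with 0.420 TPM in A and 0.351 TPM in B. So was MYF6, with 0.145 TPM in A and 0.113 TPM in B. Of the 14 recovered mesoderm genes 11 were above library A in library B, the direction of PAX1. The 14 genes summed to 14.3 TPM at HH19, 5.08 TPM in A and 7.64 TPM in B. This sum was highest at HH19, where UNCX gave 4.39 TPM, while PAX1 at HH19 lay between A and B. Over all recovered genes 39.8% were higher in B than in A, and 47.9% of the 4044 with an HH14 read. Of the 1125 with a mean TPM of at least 1, as PAX1 had, 54.1% were. The first share is lowered by genes without an HH14 read, which always lie higher in A, where the added read is worth more TPM. Several of the 14 rest on a few reads. Their part in the PAX1 values was not tested.

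Of 10 matched intermediate mesoderm and kidney genes, a tissue that expresses PAX2, 6 were tested and none was higher or lower (median 0.16, or -0.50 at a mean TPM of at least 5). Their TPM summed to 574 at HH19 and 426 at HH14, of which WNT4, also a neural tube gene, gave 497 TPM at HH19 and 324 TPM at HH14. OSR1 had 0.0434 TPM at HH19, against 0.137 TPM in HH14 library A, with 0.0713 TPM in B. EMX2 had 0.0375 TPM at HH19, against 2.17 TPM in A and 0.0617 TPM in B. The HH19 values of OSR1 and EMX2 were those of genes without a read. Other members lay above their HH14 value as PAX2 did, with RET at 4.83 TPM at HH19 and 2.29 TPM at HH14, and GFRA1 at 4.54 TPM at HH19 and 3.09 TPM at HH14. Of the 6 tested, 3 were above and 3 below HH14. Of 9 matched genes of the forebrain, eye, midbrain and hindbrain, where PAX6, PAX2 and PAX5 are also expressed, 2 were tested. Of these 1 was higher (0 after quantile normalization) and 0 lower, against 3.93% and 1.38% of all tested genes. OTX2, the forebrain and midbrain factor, had 0.0158 TPM at HH19 and 0.0794 TPM at HH14. EN2, a midbrain-hindbrain gene controlled by PAX2 and PAX5 in the mouse, had 0.0586 TPM at HH19 and 0.206 TPM at HH14. Both OTX2 and EN2 stood at HH19 at the value of a gene without a read.

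The genes beside the PAX loci were read from the order of protein-coding genes in RefSeq (assembly GRCg7b), used for names only, up to 2 on each side. Those of PAX6 lay slightly below their HH14 values while PAX6 lay above it, with ELP4 at 25.2 TPM at HH19 and 28.2 TPM at HH14, RCN1 at 48.3 TPM at HH19 and 57.1 TPM at HH14, and IMMP1L at 42.3 TPM at HH19 and 48.0 TPM at HH14. EPHA4, an ephrin receptor next to PAX3, had 31.9 TPM at HH19 and 21.9 TPM at HH14, and ALDH4A1, next to PAX7, had 24.4 TPM at HH19 and 15.8 TPM at HH14. CUEDC2 and HIF1AN, on either side of PAX2, had 24.5 and 28.7 TPM at HH19, against 23.1 and 25.0 TPM at HH14, and neither approached the difference of PAX2. NKX2-8, a ventral midline homeobox gene next to PAX9, had 36.8 TPM at HH19 and 36.9 TPM at HH14.

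The genes most alike in pattern were those nearest by Euclidean distance in log2(TPM + 1) over the 2 stages. For PAX6 they were HDHD3, POFUT1 and FAM103A1 (distances 0.030 to 0.056), for PAX3 SEC14L1, NT5C3B and LPHN2 (0.016 to 0.024), and for PAX7 GNMT, ALG3 and CRYM (0.0021 to 0.018). For PAX2 they included gga-mir-6653 and GHDC, at larger distances of 0.110 and 0.118. The nearest genes of PAX1 were CCDC96, MAP3K5 and TNFRSF11A, those of PAX9 ESPN, NT5E and TM6SF1, and those of PAX5 FAM19A2, CLIC3 and GALNT14, all within 0.034. With 2 stages this likeness reflects level and difference alone.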

How the data were processed

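Polyadenylated RNA of 2 HH14 libraries and 1 HH19 library, grouped by stage in their titles, was sequenced from TruSeq v2 libraries, per the labels. The TPM values were deposited by the authors as 1 column per stage, per the file headers. The galGal4 build, FastQC, SAMtools, TopHat2 and DESeq2 are named in the submitters' processing notes; their roles, and any joining of the HH14 libraries, stay not given in the sources used here. Members and lists were chosen with earlier results of these data known.

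A pseudocount of 1, a mean TPM of at least 1 and a log2 limit of 1 were used. A limma test on all genes had been planned for values per library and could be run on recovered genes only, after the data were seen. Whole reads in the 3 libraries that gave both columns within rounding were sought for genes of up to 400 reads at HH19. A solution was kept at no more than 0.003 chance solutions and 0.2 TPM per read. With the ratio of the columns shifted, 10.3 genes of a mean TPM of at least 1 were recovered on average (0.919% of 1125). Intervals are exact Poisson, or exact binomial (Clopper-Pearson) for ratios. limma used an intensity trend, two-sided, with Benjamini-Hochberg adjustment over the 1125 genes. The steps were run on simulated data whose spread between libraries was set by hand, not estimated from these libraries. That run does not show how often the size rule or limma would err here.

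All PAX rows were named, and in each of the 14 lists up to 4 of the most different called genes and the 2 most abundant; all members of the progenitor and inhibitory lists could be named. Genes named outside this rule were chosen after their values were seen: TLX3, PAXIP1, PAXBP1, TLE3, MYOG, MYF5, MYF6, MYOD1, TCF15, TBX18, MEOX1, MET, OSR1, EMX2, RET, GFRA1, SOX8, ETS1, OTX2, EN2 and the neighbours of the PAX genes. Some genes that the rule would name are not reported here. Of rows sharing a symbol the most abundant was used. Software was limma 3.58.1 in R 4.3.3, and Python 3.11.15 with numba 0.67.0, scipy 1.17.1, pandas 2.3.3, numpy 2.4.6 and matplotlib 3.10.9.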

Additional observations from a re-analysis of the deposited data

How the results depend on the processing

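Over the settings tried (pseudocounts 0.1 and 5, the filter dropped or raised to a mean of 5 TPM, median-ratio scaling, quantile normalization), the log2 differences of PAX3 (0.39 to 0.45), PAX6 (0.35 to 0.42), PAX7 (0.43 to 0.54) and PAX9 (0.07 to 0.47) stayed positive and within 2-fold, and PAX1 stayed below 0 (-0.22 to -0.03). At a pseudocount of 5, PAX2 had 0.57 and the PAX genes called higher were 0, since that pseudocount exceeds its TPM at both stages. PAX1 and PAX2 did not pass the raised filter, where the PAX genes called higher were again 0. At a pseudocount of 0.1, PAX5 had 1.23. With 1 HH14 library left out, PAX1 ranged from -0.46 to 0.46, PAX2 from 1.05 to 1.39, PAX5 from 0.30 to 0.53 and PAX9 from 0.19 to 0.28; this could not be done for PAX3, PAX6 and PAX7. Over all genes, 651 were higher and 279 lower at a pseudocount of 0.1, 149 higher and 46 lower at 5, and 261 higher and 85 lower under the raised filter. Their median was -0.00043 after median-ratio scaling and -0.034 after quantile normalization. List medians changed sign for the signalling genes (0.0013 at a pseudocount of 5, 0.035 under the raised filter), the excitatory interneuron genes (0.33 with no filter), the intermediate mesoderm genes (-0.10 with no filter, -0.50 under the raised filter), the cofactor genes (-0.011 after median-ratio scaling) and the mesoderm genes (-0.0091 after quantile normalization). Causes not shown by the setting itself were not tested. limma called 0 genes at pseudocounts of 0.1 and 5 and at chance limits of 0.001 and 0.01, with PAX2 at adjusted p from 0.361 to 0.599; with 1 HH19 library this says little about stability. No paired analysis was possible because HH19 has 1 library.

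For PAX5, 14 reads at HH19 and 8 at HH14 limit what can be said. Recovered values rest on the HH14 column being a plain mean.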
